A study of Brassica rapa and Brassica rapa x Brassica nigra and Brassica nigra with 18 samples.

Results

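The genes described here are 301 gene identifiers that are unplaced, that is, assigned to neither the A nor the B genome in the deposited count table, and whose counts came from the Brassica rapa parent and hardly at all from the Brassica nigra parent. RNA was measured in 18 anther libraries of 3 kinds of plant at 2 stages, with 3 libraries in each of 6 groups. The AB plants were a synthetic allohaploid with B. rapa as the seed parent and B. nigra as the pollen parent, carrying 1 chromosome set of each species. The AA plants were B. rapa and the BB plants were B. nigra. The stages were mitosis (gametogenesis, anther with pollen) and meiosis (sporogenesis, young anther). The labels give no plant age, line name, treatment or number of plants behind a library, and the growth note on the cross stands on the libraries of all 3 kinds of plant. P-values therefore rest on how much libraries of a group differed, and part or all of that may be technical.

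B. rapa (genome A) and B. nigra (genome B) are the diploid species whose genomes together make up the mustard Brassica juncea. In an AB haploid each chromosome lacks an identical partner, so regular pairing at meiosis is not possible. Spore mother cells in the anther divide by meiosis into microspores, and microspores divide by mitosis into pollen, a switch that in flowering plants replaces much of the anther's set of transcripts. Genome assemblies leave some sequence outside the chromosomes, and genes on such sequence are expressed like others but carry no genome name. Which parent's RNA they collect is the way their genome can be read from expression data.

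The genes were chosen on expression, in CPM, the count of a gene as its part of all counts in a library and brought to the same total in every library, averaged over the 3 libraries of a group. The AA and BB levels were the means of the mitosis and meiosis groups, and a gene was kept when its AA level was at least 20 CPM and made up more than 0.9 of the sum of both parental levels. Of 7504 unplaced identifiers among 79644 in the table, 327 reached that AA level and 301 of them also passed the share. The other 26 had shares at or under the limit. The member with the lowest level had 20.2 CPM in AA, and the unplaced gene just outside had 19.996 CPM with a share of 0.999. The member with the lowest share stood at 0.903, and the gene just outside at 0.891. The parental levels that chose the genes are given as a description, and the AB libraries took no part in the choice.

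The 301 genes had AA levels between 20.2 and 975 CPM with a median of 43.8 CPM, and 59 of them had 100 CPM or more. Their BB levels were close to nothing: 147 genes had 0 counts in all 6 BB libraries, where 3 counts over these libraries would be 0.0477 CPM. With these, 257 genes stayed under 1 CPM in BB, and the highest BB level was 9.48 CPM. Coding lengths, recovered from the ratio of counts to the deposited FPKM (the same measure per kilobase of gene), ran from 177 to 5784 bases with a median of 1011 bases. The median was 1062 bases for the 8054 A genes that pass the same rule and 1137 bases for the 935 unplaced genes of the mirror rule, which asks for a BB level of at least 20 CPM and an AA share under 0.1. The RefSeq listing of 51589 genes for B. rapa shared no identifier with the table (0 found). The genes therefore carry identifiers only, no function is given for them, and the anther label was not checked against marker genes.

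All 301 genes were also counted in the AB plants. No gene had 0 counts in all 6 AB libraries (0 genes). Counts were present in all 3 AB libraries of the mitosis group for 298 genes and in all 3 AB libraries of the meiosis group for 284 genes. The 10 genes at 0 counts in AB at meiosis were at most 0.228 CPM in AA at that stage, and the 1 gene at 0 counts in AB at mitosis was at 0 CPM there in AA as well. A count of 0 over the 3 AB libraries at meiosis allows up to 0.0857 CPM. Such floors cover counting error only, because PCR copies of a molecule are not told apart in these counts.

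Together the genes took close to 50% of their AA share of the library in AB. At mitosis they took 1.14%, 1.12% and 1.11% of the counts in the AB libraries, against 2.17%, 2.17% and 2.19% in the AA libraries. At meiosis they took 1.41%, 1.40% and 1.40% of the AB counts, against 2.78%, 2.77% and 2.76% of the AA counts. The BB libraries held between 0.0121% and 0.0163% at both stages. The AB groups lay between AA and BB with no overlap. Set against 50% of the AA value, the sum over the genes in AB was 1.03 ± 0.0147 at mitosis and 1.01 ± 0.00616 at meiosis (SD over the 3 AB libraries). For the A genes of the same rule these ratios of sums were 0.991 ± 0.00183 at mitosis and 1.01 ± 0.000755 at meiosis.

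**Figure D1:**
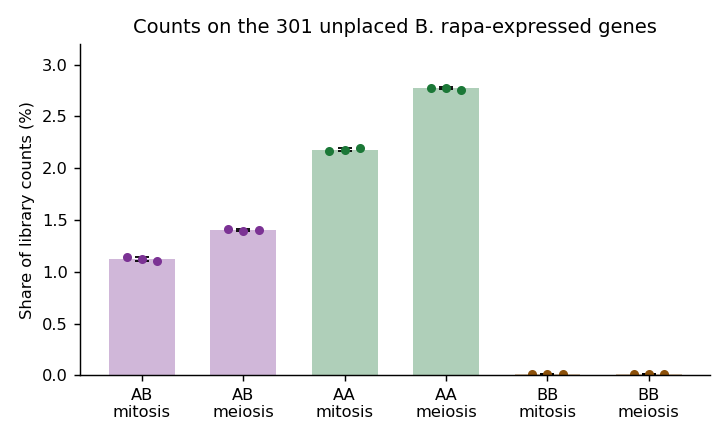
Share of all counts of a library (percent) that fell on the 301 unplaced genes, with points for the 3 libraries of a group, bars for their mean and error bars for the SD. The AB groups stand at 1.12% at mitosis and 1.40% at meiosis, the AA groups at 2.18% and 2.77%, and the BB groups near 0.

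The share was spread unevenly over the genes, and the most abundant gene changed with the stage. The A genes of the same rule were not compared in this respect. The 10 most abundant of the 301 held 22.9% of their counts in AB at mitosis and 32.3% in AB at meiosis, and 25.5% and 27.4% in AA. The counts reached 50% with 42 genes in AB at mitosis and with 28 genes at meiosis, and with 39 and 34 genes in AA. At meiosis BjuO006301 was the most abundant gene of the set in both AB and AA, with 7.30% and 7.03% of the set's counts. At mitosis the most abundant gene was a different one in each, with 4.26% of the set's counts in AB and 3.84% in AA.

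The stage change asks which of these genes differ between the pollen stage and the meiotic stage. It was tested with edgeR's quasi-likelihood F test over 26647 A and unplaced genes in the AB and AA libraries, with Benjamini-Hochberg adjusted p-values and a threshold of 0.05. The A genes alone set the library sizes and the TMM scaling, so a change is relative to the other A genes. On this scale a log2 change is 0.08 higher in AB and 0.52 higher in AA than on CPM of all counts. The 682 A genes of the same rule that rose at least 32-fold in AA took 11.4% of the AB counts and 34.5% of the AA counts at mitosis, and their part in the shift was not tested. All 301 genes passed the filter on low counts.

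Most of the genes changed between stages in both plants. In AB, 133 of the 301 genes were higher at mitosis and 136 lower, with 32 not called, where 41.1% of all genes tested were higher and 36.3% lower. In AA, 138 were higher and 139 lower, with 24 not called, against 37.6% and 34.7% of all genes tested. The genes were chosen for a level well above the filter. Their shares called, 44.2% higher and 45.2% lower in AB, lie beside 42.0% and 47.6% for the 8054 A genes of the same rule. The shares in AA, 45.8% higher and 46.2% lower, lie beside 43.2% and 46.5% for those A genes. The median log2 change was -0.04 in AB and -0.04 in AA, with the middle 50% between -1.14 and 1.39 in AB and between -0.95 and 1.23 in AA. The median was -0.04 in both also with groups at 0 counts set to 3 counts over the group. On CPM of all counts the split of calls was 128 higher and 143 lower in AB, and 101 higher and 170 lower in AA.

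Large changes were seen in both directions. At least 2-fold changes numbered 88 higher and 83 lower genes in AB, where 31.1% and 24.7% of all genes tested changed so, and 87 higher and 73 lower genes in AA, against 27.6% and 23.2%. A rise of at least 32-fold was seen in 29 genes in AB and in 29 genes in AA, where the background was 7.75% and 7.22%. A fall of at least 32-fold was seen in 7 genes in each plant, where the background was 2.52% in AB and 2.95% in AA. The 29 genes that rose so in AB took 0.146% ± 0.00574 of the AB counts at mitosis and 0.00103% ± 0.000164 at meiosis (SD, n = 3 libraries).

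Across the 301 genes the stage changes of AB and AA had a Spearman correlation of 0.866, over separate libraries, as a description across genes. Of the genes, 113 were called higher at mitosis in both plants and 110 lower in both. These are 37.5% and 36.5% of the unplaced genes, beside 34.5% and 38.5% of the A genes of the same rule. Opposite calls also occurred: 13 genes were higher in AB and lower in AA, and 13 were lower in AB and higher in AA. These are 4.32% and 4.32% of the unplaced genes, beside 3.85% and 4.84% of the A genes of the same rule. With library sizes from all counts, 22 unplaced genes were higher in AB and lower in AA and 4 were the reverse, so the balance between these directions depends on the scale.

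**Figure D2:**
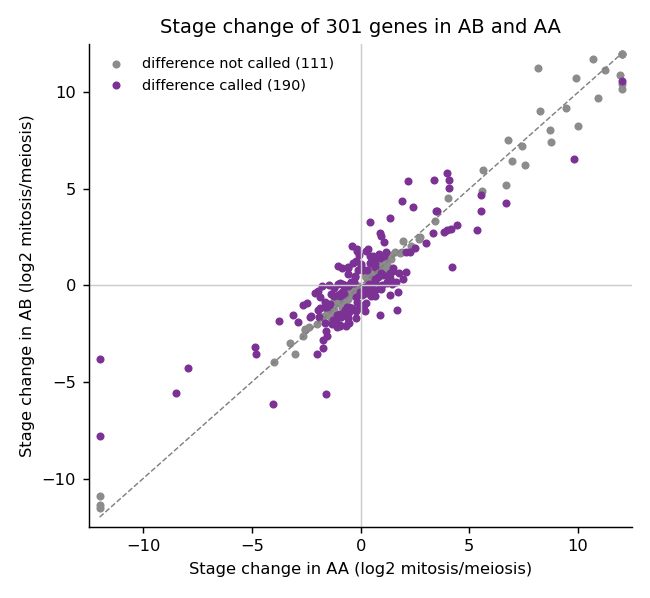
Log2 change, mitosis over meiosis, in AB (vertical axis) and in AA (horizontal axis) for the 301 unplaced genes, relative to the A genes, with the dashed line at equal change and values beyond the axis limits drawn at the edge. Purple points are the 190 genes whose stage changes differed between AB and AA, and grey points the 111 genes without such a call.

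The individual genes named here had the largest changes among called genes that averaged 10 or more counts per library throughout the groups compared. BjuO008904 (coding length 534 bases) had 86.4, 87.7 and 85.8 CPM in AB at mitosis, against 0.863, 0.770 and 1.53 CPM in AB at meiosis. The stages were far apart in every library, and the log2 change was 6.43 (SE 0.13, adjusted p = 3.01e-22 in edgeR's test). In AA it had 241, 226 and 244 CPM at mitosis, against 2.23, 2.56 and 3.43 CPM at meiosis, so both plants showed the same switch at a lower level in AB. BjuO008623 had 82.9, 80.7 and 79.1 CPM in AB at mitosis, against 2.24, 1.80 and 1.79 CPM at meiosis (log2 change 5.45, SE 0.10, edgeR adjusted p = 7.31e-23). In AA it had 122, 129.6 and 135 CPM at mitosis, against 16.7, 17.8 and 18.5 CPM at meiosis. The AB libraries were thus far below the AA libraries at meiosis and closer to them at mitosis.

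BjuO002708 had 3.82, 2.995 and 3.70 CPM in AB at mitosis, against 838, 839.6 and 841 CPM in AB at meiosis. This was the largest fall in AB by the naming rule: the log2 change was -7.82 (SE 0.09, adjusted p = 8.91e-27 in edgeR's test). In AA its mitosis libraries held 0.0898, 0 and 0 CPM, a single count, and its meiosis libraries 426, 401 and 437 CPM. It was therefore low at mitosis in both plants but near silent only in AA, and higher in AB than in AA at both stages. BjuO006619 had 3.996, 4.85 and 4.44 CPM in AB at mitosis, against 333, 337 and 339 CPM at meiosis (log2 change -6.16, SE 0.08, edgeR adjusted p = 4.22e-26).

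In AA, BjuO012097 had 380.3, 375 and 339 CPM at mitosis, against 1.20, 0.938 and 1.63 CPM at meiosis. Its log2 change of 8.69 (SE 0.11, edgeR adjusted p = 1.70e-26) was the largest rise in AA by the naming rule, and its change in AB was 8.06 (SE 0.14). BjuO013775 had 117, 124 and 119 CPM in AA at mitosis, against 0.599, 1.19 and 1.20 CPM at meiosis (log2 change 7.41, SE 0.15). In AB this gene had 69.0, 69.4 and 71.9 CPM at mitosis, against 0.345, 0.171 and 0.938 CPM at meiosis. Both genes were near silent at meiosis and abundant at mitosis, in AB and in AA. The largest fall in AA by the same rule was that of BjuO006301, with 4.76, 3.77 and 2.76 CPM at mitosis, against 1924, 1982 and 1935 CPM at meiosis (log2 change -8.49, SE 0.09, edgeR adjusted p = 1.50e-27). BjuO010275 had 2.07, 1.80 and 1.51 CPM in AA at mitosis, against 76.6, 72.2 and 76.6 CPM at meiosis (log2 change -4.86, SE 0.14).

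**Figure D3:**
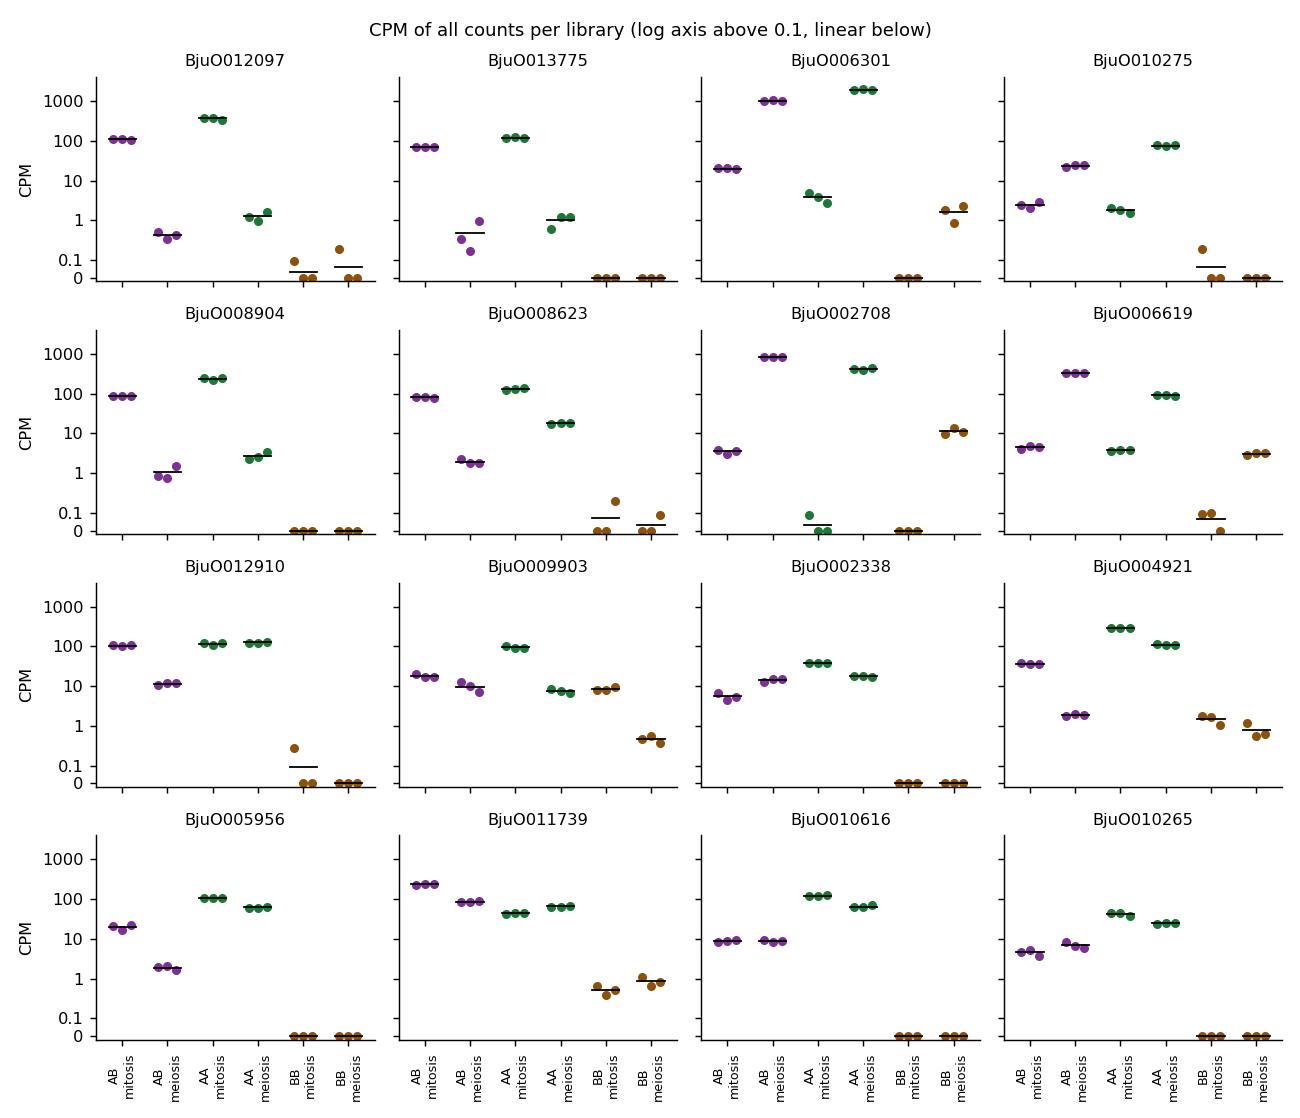
CPM of all counts in each library for the 16 named genes, with points for the 3 libraries of a group and a line for their mean, on an axis that is logarithmic above 0.1 CPM and linear below. Points within a group lie close together, the BB groups are at or near 0 for most genes, and genes such as BjuO011739 and BjuO002708 stand higher in AB than in AA at 1 or both stages.

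The difference between the stage changes asks whether a gene switched by a different amount in AB than in AA. It was called for 190 of the 301 genes: 90 had a more positive change in AB and 100 a more negative one, where 20.3% and 19.6% of all genes tested were called so. The shares of 29.9% and 33.2% lie beside 29.7% and 35.1% for the A genes of the same rule. At least 2-fold differences numbered 44 more positive and 43 more negative, against backgrounds of 12.9% and 10.7%. The median difference was -0.02 on the log2 scale. With library sizes from all counts, which move every difference by 0.45 towards a higher change in AB, the calls were 147 more positive and 58 more negative.

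BjuO006301, the most abundant of the genes at meiosis, fell less in AB than in AA. It had 20.3, 20.6 and 19.4 CPM in AB at mitosis, against 1002, 1045 and 1030.1 CPM in AB at meiosis. Its stage change was -5.59 (SE 0.07) in AB and -8.49 in AA, a difference of 2.89 (SE 0.13, edgeR adjusted p = 1.43e-14). BjuO012910 had 106, 103 and 105 CPM in AB at mitosis, against 10.5, 12.1 and 11.9 CPM in AB at meiosis. In AA the stages overlapped on the CPM scale, with 124, 108 and 119.8 CPM at mitosis and 122, 124 and 129 CPM at meiosis. The log2 change was 3.26 (SE 0.08) in AB and 0.43 (SE 0.06) in AA, where the CPM of all counts was instead slightly lower at mitosis. The difference was 2.83 (SE 0.10, edgeR adjusted p = 3.07e-16). The contrast between the plants lay at meiosis, where AB was about an order of magnitude below AA.

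BjuO009903 rose more in AA than in AB. It had 19.9, 17.2 and 16.8 CPM in AB at mitosis, against 12.3, 9.84 and 6.91 CPM in AB at meiosis. In AA it had 103, 93.2 and 91.6 CPM at mitosis, against 8.65, 7.50 and 6.52 CPM at meiosis, and the difference between the changes was -3.22 (SE 0.20, edgeR adjusted p = 7.48e-12). Its AB libraries overlapped those of AA at meiosis and lay far below them at mitosis. This gene also had 8.15, 8.02 and 9.30 CPM in BB at mitosis. BjuO002338 moved in opposite directions: 6.66, 4.58 and 5.26 CPM in AB at mitosis against 12.8, 14.7 and 14.9 CPM in AB at meiosis, and 38.5, 38.2 and 38.4 CPM in AA at mitosis against 17.6, 17.8 and 16.8 CPM in AA at meiosis. Its log2 change was -1.28 (SE 0.13) in AB and 1.66 (SE 0.11) in AA, with a difference of -2.95 (SE 0.17, edgeR adjusted p = 2.01e-12).

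The level in AB was then compared with 50% of the AA level, on CPM of all counts, since AB has a single A genome beside a B genome and both genomes draw on the same library. For each gene the ratio of AB to 50% of AA is given, with a value of 1 where the AB level is exactly that. The test was the edgeR quasi-likelihood test with the AA libraries entered at 50% of their level, over 26566 A and unplaced genes. AA levels also entered the choice of the genes, so the calls are read as a description. Chosen on replicates 1 and 2 of AA and BB instead, 300 genes, of which 298 were among the 301, had a median ratio in replicate 3 of 1.16 at mitosis and 0.914 at meiosis.

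Measured on CPM of all counts, the typical gene stood above 50% of its AA level at mitosis and slightly below it at meiosis. The median ratio was 1.20 at mitosis over the 295 genes with at least 1 CPM in AA, with medians of 1.21, 1.18 and 1.17 in the 3 AB libraries. At meiosis it was 0.919 over 279 genes, with 0.936, 0.907 and 0.916 in the AB libraries. The middle 50% of the genes ran from 0.844 to 1.53 at mitosis and from 0.634 to 1.28 at meiosis. The A genes of the same rule had medians of 1.18 and 0.941. The 147 genes at 0 counts in BB had medians of 1.18 at mitosis and 0.920 at meiosis, close to those of the genes with counts in BB, 1.20 and 0.914.

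By the test, 158 of the 301 genes were higher than 50% of the AA level at mitosis and 76 lower, with 67 not called, where 47.9% of all genes tested were higher and 15.3% lower. At meiosis 87 were higher and 121 lower, with 93 not called, against 30.9% and 26.8% of all genes tested. At mitosis these are 52.5% higher and 25.2% lower, beside 50.7% and 23.1% of the A genes of the same rule. At meiosis they are 28.9% higher and 40.2% lower, beside 29.6% and 39.6%. Departures of at least 2-fold were fewer: 24 higher and 27 lower at mitosis, against backgrounds of 25.0% and 7.49%. At meiosis they were 14 higher and 43 lower, against 17.7% and 13.0%. The genes tested include unplaced genes with counts mainly in BB, which stand higher in AB than in AA. As shares, the departures at mitosis are 7.97% and 8.97%, beside 9.56% and 7.25% of the A genes of the same rule. Those at meiosis are 4.65% and 14.3%, beside 4.33% and 13.3%.

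The direction at mitosis depended on the scale. Relative to the other A genes, with library sizes and TMM factors from A genes, the log2 values at mitosis are 0.37 lower, and 77 genes were higher in AB than in AA and 127 lower. At meiosis the values are 0.07 higher on that scale, and 99 genes were higher and 112 lower. The median log2 value there was -0.1 at mitosis and -0.05 at meiosis, against 0.26 and -0.12 on CPM of all counts. On CPM of all counts, 67 genes were lower at meiosis and higher at mitosis and 14 were the reverse. These are 22.3% and 4.65% of the unplaced genes, beside 21.0% and 6.17% of the A genes of the same rule. Relative to the A genes, 29 were lower at meiosis and higher at mitosis and 39 were the reverse. On that scale these are 9.63% and 13.0%, beside 9.81% and 14.5% of the A genes of the same rule.

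**Figure D4:**
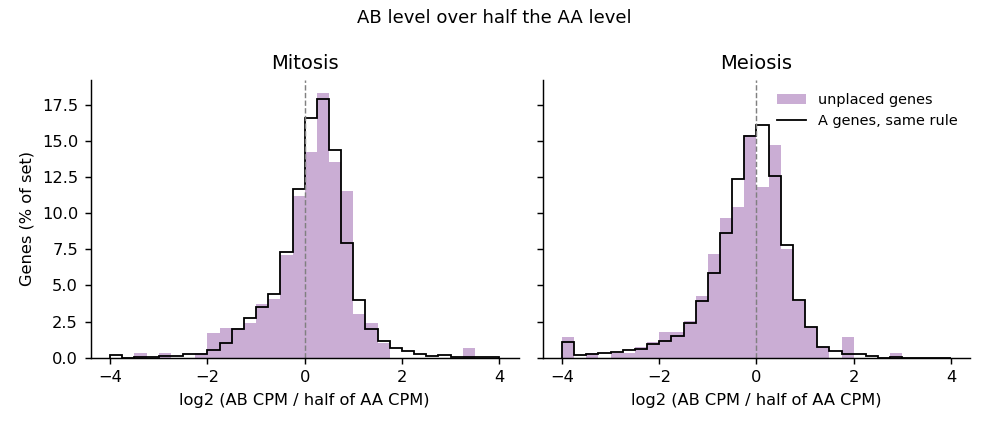
Distribution of the log2 ratio of the AB level to 50% of the AA level, in CPM of all counts, at mitosis (left) and at meiosis (right), as percent of genes in each set with at least 1 CPM in AA, with ratios beyond the axis drawn in the outermost bins. The filled bars are the unplaced genes, with median ratios of 1.20 at mitosis and 0.919 at meiosis, and the black line is the A genes chosen by the same rule, with 1.18 and 0.941.

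The genes with the steepest rise at mitosis lay lowest in AB at that stage. The 29 genes that rose at least 32-fold in AB had a median ratio of 0.549 at mitosis, and 26 of them were called lower than 50% of the AA level and 2 higher. The 29 genes that rose at least 32-fold in AA had a median of 0.537, with 26 lower and 1 higher. These genes held 0.132% ± 0.00456 of the AB counts at mitosis, against 0.457% ± 0.0168 of the AA counts. The grouping and the ratio share the AB libraries at mitosis in the first case and the AA libraries at mitosis in the second. Among the A genes of the same rule, the 674 that rose so in AB had a median of 0.570, with 489 called lower and 143 higher, and the 682 that rose so in AA had a median of 0.521, with 536 lower and 107 higher.

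Grouped by the stage change in AB, the genes with smaller changes had medians above 50% of the AA level at mitosis. The 59 genes that rose 2- to 32-fold in AB had a median ratio of 1.27 at mitosis and 0.684 at meiosis. The 130 genes that were not called in AB, or changed less than 2-fold, had 1.30 and 0.935, and the 76 genes that fell 2- to 32-fold had 1.12 and 1.08. Of the 130, 83 were called higher than 50% of the AA level at mitosis and 19 lower. Among the A genes of the same rule, the median ratios at mitosis and meiosis were 1.23 and 0.714 for the 1493 that rose 2- to 32-fold in AB and 1.14 and 1.09 for the 2002 that fell 2- to 32-fold. The 3708 A genes not called or changed less than 2-fold had 1.24 and 0.947, and 2119 of them were called higher than 50% of the AA level at mitosis and 582 lower. These A-gene medians lay on the same side of 1 as those of the unplaced genes in each group. Grouped by the stage change in AA instead, the 58 genes that rose 2- to 32-fold had a median ratio of 0.941 at mitosis. Of these 58, 20 were called higher than 50% of the AA level and 25 lower. The 141 genes not called in AA or changed less than 2-fold had 1.26, and the 66 that fell 2- to 32-fold had 1.44. The A genes of the same rule had 0.980, 1.21 and 1.38 in these AA groups. Each grouping shares the mitosis libraries of its plant with the ratio. Relative to the other A genes all these mitosis values are lower by the 0.37 on the log2 scale given above. On CPM of all counts the median log2 values at mitosis were 0.35 for the 59 genes, 0.38 for the 130 and 0.18 for the 76. The shift is about as large as these medians or larger, so relative to the A genes these AB groups do not lie clearly above 50% of AA.

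**Figure D5:**
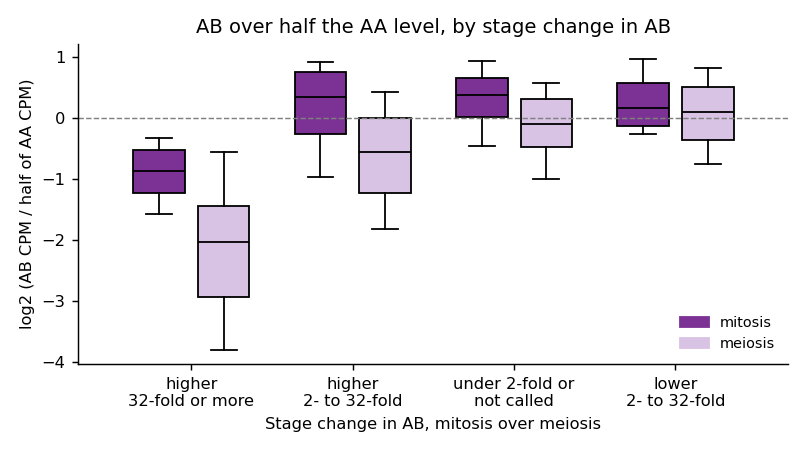
Log2 ratio of the AB level to 50% of the AA level (CPM of all counts) for the unplaced genes grouped by their stage change in AB, at mitosis (dark) and meiosis (light). Boxes span the middle 50% with the median as a line, and whiskers leave out 10% of the genes at each end. The 7 genes that fell at least 32-fold are not drawn. Genes that rose at least 32-fold in AB have a median ratio of 0.549 at mitosis, and the other groups drawn have medians between 1.12 and 1.30.

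Single genes lay far outside these middle ranges. Among the 295 genes with at least 1 CPM in AA at mitosis, 21 were above the AA level itself in AB, with ratios over 2, and 27 were under a ratio of 0.5. Among the 279 genes with at least 1 CPM in AA at meiosis, these numbers were 13 and 41. The A genes of the same rule with at least 1 CPM in AA numbered 7894 at mitosis and 7611 at meiosis. Of these, 712 were over 2 and 580 under 0.5 at mitosis, and 311 and 1014 at meiosis. BjuO006619, named above for its fall, had 333, 337 and 339 CPM in AB at meiosis, against 90.2, 93.4 and 86.7 CPM in AA at meiosis. Its ratio to 50% of AA was 7.46, a log2 value of 2.90 (SE 0.05, edgeR adjusted p = 7.38e-23), while BB held 2.79, 3.23 and 3.18 CPM. BjuO002708 had a ratio of 3.98 at meiosis (log2 value 1.99, SE 0.05), with 9.59, 13.9 and 10.7 CPM in BB. In both genes the AB level was higher than the levels of AA and BB added together.

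BjuO004921 had 1.81, 1.97 and 1.88 CPM in AB at meiosis, against 112, 111 and 109 CPM in AA at meiosis. The ratio to 50% of AA was 0.0341, a log2 value of -4.87 (SE 0.09, edgeR adjusted p = 1.53e-22). At mitosis it had 37.6, 36.7 and 36.6 CPM in AB, against 283, 287 and 288 CPM in AA, a ratio of 0.259. It was thus low in AB at both stages and most of all at meiosis. BjuO005956 had 1.98, 2.05 and 1.62 CPM in AB at meiosis, against 59.8, 60.6 and 64.5 CPM in AA at meiosis (log2 value -4.03, SE 0.13, edgeR adjusted p = 3.89e-18).

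At mitosis BjuO011739 had 228, 242 and 246 CPM in AB, against 41.1, 44.6 and 44.9 CPM in AA. Its ratio to 50% of AA was 10.95, a log2 value of 3.45 (SE 0.06, edgeR adjusted p = 4.98e-23), and it was above the AA libraries at meiosis as well, with 84.4, 85.6 and 88.2 CPM in AB against 62.9, 63.6 and 68.5 CPM in AA. Its BB libraries held between 0.396 and 1.12 CPM over both stages. BjuO006301 had a ratio of 10.7 at mitosis (log2 value 3.41, SE 0.11), from the values given above. At meiosis its ratio was 1.05, a log2 value of 0.08 that was not called (edgeR adjusted p = 0.213).

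BjuO010616 had 8.08, 8.90 and 9.21 CPM in AB at mitosis, against 120.5, 121 and 127 CPM in AA at mitosis. The ratio to 50% of AA was 0.142, a log2 value of -2.81 (SE 0.08, edgeR adjusted p = 1.54e-18). At meiosis the AB libraries held 9.32, 8.55 and 8.87 CPM, against 61.7, 63.8 and 68.9 CPM in AA, so the AB level hardly differed between stages while the AA level did. BjuO010265 had 4.795, 5.20 and 3.62 CPM in AB at mitosis, against 44.4, 45.9 and 37.3 CPM in AA at mitosis (log2 value -2.23, SE 0.15, edgeR adjusted p = 4.17e-12). Both genes had 0 counts in every BB library.

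The 301 genes carried numbers between 4 and 14058, and 112 of them had another of the 301 at the next or previous number, in 63 consecutive pairs. Over the 301 genes and the 935 genes of the mirror rule together, 275 pairs had consecutive numbers, of which 63 joined genes expressed from B. rapa and 200 joined genes expressed from B. nigra. The other 12 pairs joined genes of different parents. What the numbers stand for is not given in the sources used here. Of the 63 pairs of genes expressed from B. rapa, the changes in AB had the same sign in 31. In 13 pairs both genes were called higher, in 11 both lower, and 23 pairs were called in opposite directions. Over all 301 genes, 148 changes in AB were positive and 153 negative, with 44.2% called higher and 45.2% lower. Whether neighbours differ in this from genes paired at random was not tested.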

How the data were processed

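The authors deposited raw counts per gene identifier and FPKM values, per the file headers. The tools listed, per the submitters' processing notes, were HTSeq 0.6.0, HISAT2 2.1.0, Bowtie 1.0.1 and TopHat2. Not given in the sources used here are the part each played, the genome build and the strand setting. The table counts identifiers of both genomes in every library, and near-identical copies can share reads. A repeated column of the first AA mitosis library was identical to the first one and was not used (1 column). Library totals ran from 9782001 to 12161111 counts. No numbering pairs libraries across groups by the labels.

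Groups came from the sample titles. Counts of the 12 AB and AA libraries entered edgeR 4.0.16 under R 4.3.3 (glmQLFit, glmQLFTest, group means, filterByExpr by group), over A and unplaced genes, with the 2 scales given in the report. Each standard error is the log2 change divided by the root of its F value. Alternatives used DESeq2 1.42.0, limma 3.58.1 on log2(FPKM + 1), other scaling, filters, features and member rules, a replicate block and leaving out each library. Per contrast, at most 2 called genes that rose and 2 that fell are named, those with the largest log2 changes and at least 10 counts per library on average in every group compared. The pipeline was tested on simulated data. The members, lists and rules were chosen with earlier results of these data known.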

Additional observations from a re-analysis of the deposited data

Results flagged for a closer look

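The difference between the stage changes of AB and AA was tested directly, and 90 of the 301 genes had more positive and 100 more negative changes in AB. These are 29.9% and 33.2%, beside 29.7% and 35.1% of the A genes of the same rule. With library sizes from all counts the calls were 147 more positive and 58 more negative. Among genes that averaged 10 or more counts per library in all 4 groups of the test, the 2 most positive and the 2 most negative differences were those of BjuO006301 with a log2 difference of 2.89, BjuO012910 with 2.83, BjuO009903 with -3.22 and BjuO002338 with -2.95. With each of the 12 libraries left out in turn these ranged from 2.70 to 3.10, from 2.77 to 2.88, from -3.41 to -3.01 and from -3.09 to -2.83. BjuO002708, with a single count in AA at mitosis, was under that minimum and had a fitted log2 difference of 4.97.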

How the results depend on the processing

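The counts of called genes were recomputed under each alternative. With a minimum of 2-fold, the stage change was called higher for 88 and lower for 83 genes in AB and for 87 and 73 in AA, the difference for 44 and 43, the level against 50% of AA for 24 and 27 genes at mitosis and for 14 and 43 at meiosis. With library sizes from all counts, the difference was called for 147 and 58 genes, and limma on log2(FPKM + 1) called it more positive for 151. With scaling from A genes, 77 genes were higher and 127 lower than 50% of AA at mitosis. Chosen on replicates 1 and 2, the median ratio in replicate 3 at mitosis was 1.16. DESeq2, relative log expression factors, no filter, B genes in the fit, only the groups of a contrast and other limits for the members kept each count, or for other limits each share, within 1.5 times. Without 1 library at a time, the counts ran from 128 to 133 higher and 132 to 136 lower for the stage change in AB, 136 to 139 and 132 to 139 in AA, 86 to 91 and 92 to 99 for the difference, 151 to 159 and 71 to 77 against 50% of AA at mitosis, and 81 to 88 and 116 to 122 at meiosis. In the comparison each gene was named for, no named gene changed direction or lost its call under these alternatives; their other comparisons were not followed gene by gene. With library sizes from all counts, 10 of the 277 calls for the stage change in AA, 1 of 190 for the difference and 0 of 269 for the stage change in AB reversed; limma reversed 9, 2 and 0 of these, and scaling from A genes reversed 6 of 234 calls at mitosis and 0 of 208 at meiosis. Same-numbered libraries share only a number; their deviations correlated between -0.0285 and 0.0276, and with the replicate block 267 of 269 calls in AB, 274 of 277 in AA, 186 of 190 for the difference, 234 of 234 at mitosis and 206 of 208 at meiosis were kept. Depth limits genes near 0.0857 CPM in a group.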
